A study of Homo sapiens with 2 samples.

Results

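Epithelial cells are held together by tight junctions, desmosomes and gap junctions, and these are tied inside the cell to actin and to keratin filaments. Tight junctions are built from claudins and occludin on scaffold proteins such as ZO-1, and in the kidney the claudins of each tubule segment set which ions pass between the cells. Desmosomes join cadherins of the desmoglein and desmocollin families to keratins through plakoglobin, plakophilins and desmoplakin, and connexins form the channels of gap junctions.

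The genes described here were 36 named genes of these structures, chosen by symbol: 5 for the keratins and EPCAM, 9 claudins, 8 other tight junction and polarity genes, 7 desmosome genes, 3 connexins and 4 genes of epithelial splicing or the apical membrane. They were followed through all Affymetrix probe sets annotated to exactly 1 of them, which were 72 probe sets of 34 genes, out of 41091 single-gene probe sets of 19775 genes in the series. No such probe set was found for F11R, which encodes the junctional adhesion molecule JAM-A, or for ESRP2, an epithelial splicing regulator. The series compared 786-VHL, a line derived from 786-O that contains a working VHL allele, with 786-O, a human renal cell carcinoma line with a mutated VHL allele, to find genes that depend on VHL. Each line was measured on 1 array of biotin-labelled total RNA, and no treatment is named in the labels. How VHL was introduced, and whether 786-VHL is a single clone, is not given in the sources used here.

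Values are deposited intensities in arbitrary units, with a median of 22.6 on the 786-VHL array and 21.97 on the 786-O array. Differences are log2(786-VHL + 16) minus log2(786-O + 16), so a positive difference is higher in 786-VHL. Folds are taken on this same scale, where the change of a dim gene comes out too small. A probe set was called measured when its brighter array exceeded 22.3, the median of all values and here the floor, and a gene was represented by the probe set with the highest mean log2 value. Because each line had a single array, differences could not be tested and carry no p-value. Probe sets of the same gene differed among themselves with an SD of 0.33 over 6436 genes with several measured probe sets, the only error available, which says nothing of cultures or arrays. VHL itself had 15.96 in 786-VHL and 28.9 in 786-O on its brighter probe set, the first of them below the floor, and both values of its other probe set were below it. On its brighter probe set VHL was thus at least 1.17-fold lower in the line labelled as holding the working allele, which goes against the label's direction, at a signal near the floor. Whether these probes match the introduced sequence is not given in the sources used here. In all that follows 786-VHL and 786-O mean the arrays so labelled, and every direction rests on the labels.

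Most junction and keratin genes were less than 1.5-fold apart, 21 of 30 measured (70.0%) beside 87.2% of all 13291 measured genes, and 3 stood far apart. With values below the floor set to the floor, CLDN16 was the 6th and GJA1 the 9th highest of the measured genes by difference, and MAL was the 19th lowest. Above the floor were 30 of the 34 genes, and CLDN10, OCLN, DSP and ESRP1 were below it on both arrays. Among the 30, 15 were higher and 15 lower in 786-VHL, and the median difference was 0.01, beside 0.05 over all measured genes, of which 56.8% were higher. At least 2-fold higher were GJA1, CLDN16 and CXADR, 3 of 30 beside 1.54% of all measured genes. At least 2-fold lower were MAL, DSC2 and PKP2, 3 of 30 beside 2.18% of all measured genes. PKP2 was below the floor in 786-VHL and is no longer 2-fold lower with that array at the floor, which leaves 2 of 30 lower, beside 2.08% of all measured genes counted the same way. GJA1 passed the floor only through 786-VHL, and PKP2 and JUP only through 786-O, so these counts describe the genes that passed and support nothing further. The remaining 24 measured genes were less than 2-fold apart.

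**Figure D1:**
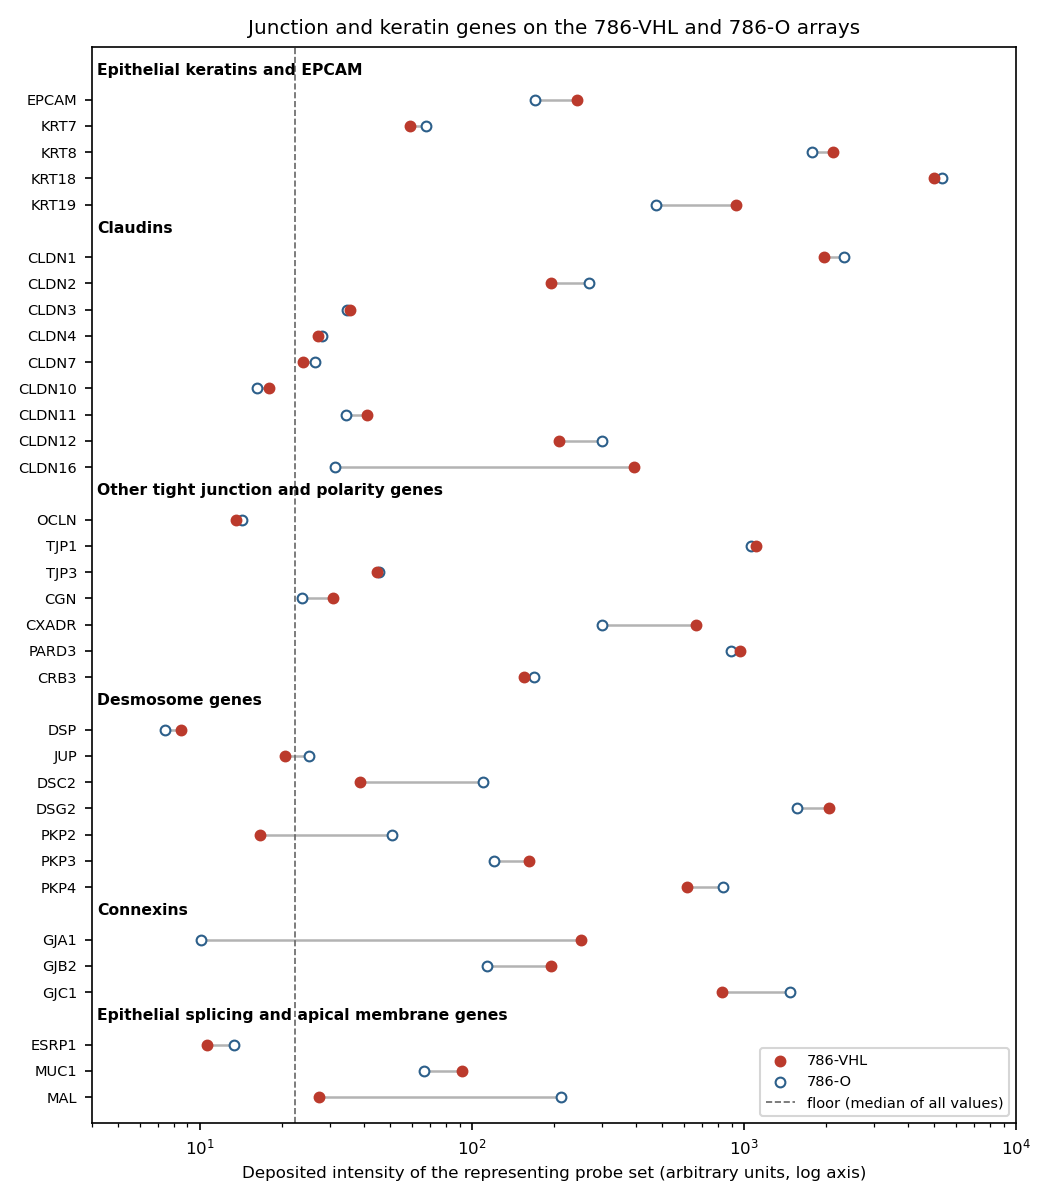
Deposited intensity (log axis, arbitrary units) of the representing probe set of 34 genes, grouped by role, on the 786-VHL array (filled) and the 786-O array (open), 1 array per line and no error bars. The longest gaps are those of GJA1, CLDN16 and MAL, and CLDN10, OCLN, DSP and ESRP1 lie left of the dashed floor at 22.3.

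The base sequences before the starts of the 4 genes farthest apart that have an entry in the RefSeq promoter table are shown so that the letters can be read beside the expression differences. Each run holds the 250 bases before the start, build GRCh38.p14, 5′ to 3′ on the gene's strand. Capitals mark matches to 3 motifs on both strands: the E-box CACCTG or CAGGTG, which Snail-type repressors bind, the core of HIF sites, ACGTG or GCGTG as read on either strand, and the AP-1 motif TGANTCA.
GJA1, chr6:121435396-121435645, plus strand: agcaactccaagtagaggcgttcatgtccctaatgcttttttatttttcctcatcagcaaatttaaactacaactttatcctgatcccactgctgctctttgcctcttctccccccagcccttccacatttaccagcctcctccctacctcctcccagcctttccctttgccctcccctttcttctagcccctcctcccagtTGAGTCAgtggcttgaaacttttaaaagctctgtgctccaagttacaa
CLDN16, chr3:190290111-190290360, plus strand: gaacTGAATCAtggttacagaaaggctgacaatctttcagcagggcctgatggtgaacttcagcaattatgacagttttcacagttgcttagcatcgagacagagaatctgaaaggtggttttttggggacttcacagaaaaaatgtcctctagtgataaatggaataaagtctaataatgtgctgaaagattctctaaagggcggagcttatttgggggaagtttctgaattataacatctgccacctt
MAL, chr2:95025458-95025707, plus strand: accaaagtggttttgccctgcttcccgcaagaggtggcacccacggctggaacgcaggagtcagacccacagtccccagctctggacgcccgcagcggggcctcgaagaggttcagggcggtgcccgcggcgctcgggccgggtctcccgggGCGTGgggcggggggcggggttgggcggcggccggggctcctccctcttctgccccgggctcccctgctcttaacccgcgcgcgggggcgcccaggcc
DSC2, chr18:31102422-31102671, minus strand: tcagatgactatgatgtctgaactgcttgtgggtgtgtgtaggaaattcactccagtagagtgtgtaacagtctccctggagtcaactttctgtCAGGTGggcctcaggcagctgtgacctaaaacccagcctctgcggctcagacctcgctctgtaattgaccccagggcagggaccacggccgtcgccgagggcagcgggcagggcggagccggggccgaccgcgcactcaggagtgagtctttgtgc
GJA1 and CLDN16, the members with the largest positive differences, each held an AP-1 match in these windows, beginning 48 and 246 bases before the start. AP-1 matches were found in 6.57% of 35116 windows of the same length before all gene starts. The second CLDN16 window in the table, chr3:190387913-190388162, held none of the 3 motifs. Which of the CLDN16 starts the 2 lines used was not tested, so the CLDN16 match depends on the window shown. MAL held a HIF core 98 bases before its start, and such cores were in 43.2% of all windows. The DSC2 window shown held an E-box 156 bases before its start, against 17.5% of all windows with an E-box, and the other DSC2 window held 3 HIF cores and no E-box. CG steps are the sites of DNA methylation, with a median of 11 over all windows. Of the windows shown, that of GJA1 had 1, CLDN16 2, DSC2 12 and MAL 26. The second CLDN16 window had 4 and the other DSC2 window 19. Across the 38 windows of 24 member genes in the table, 12 held an E-box, 19 a HIF core and 4 an AP-1 match. Besides GJA1 and CLDN16, the AP-1 matches lay before CLDN2, at a difference of -0.44, and CLDN4, at -0.03. The motifs were chosen after the expression values were known, and a match is a description of letters and not of binding.

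Keratins 8, 18, 19 and 7 form the filaments of simple epithelia, and EPCAM is an adhesion molecule of epithelial cells. All 5 genes were measured and none was 2-fold apart. KRT19 was nearest, with 930.1 in 786-VHL and 472 in 786-O, a difference of 0.96, or 1.94-fold. The second KRT19 probe set was below the floor on both arrays, so this value had no check from another probe set. KRT18 had 4960 in 786-VHL and 5315 in 786-O, a difference of -0.10, and its partner keratin KRT8 had 2116 in 786-VHL and 1771 in 786-O, a difference of 0.25. The probe sets of KRT8 and KRT18 carry the suffix _x_at, which marks probes that can match other sequences, and both genes have many processed pseudogenes, so their values are uncertain. EPCAM differed by 0.47, and the 2 measured KRT7 probe sets by -0.15 and -0.46.

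Claudins are the membrane proteins that seal the tight junction or make it permeable. CLDN16, needed for magnesium reabsorption in the thick ascending limb, had 392 in 786-VHL and 31.2 in 786-O on its only probe set. Both values were above the floor, and the difference was 3.11, or 8.64-fold. No other measured claudin was 1.5-fold apart. CLDN1, a barrier claudin and the next measured gene to CLDN16 on chromosome 3, had 1968 in 786-VHL and 2324 in 786-O, a difference of -0.24, while its other probe set differed by 0.50. The gene on the other side of CLDN16, P3H2, differed by 0.80, and the 30 nearest measured genes had a median difference of -0.07. CLDN2, which forms cation pores in the proximal tubule, differed by -0.44, and CLDN12 by -0.50, each on 1 probe set. CLDN3, CLDN4 and CLDN7, claudins of the distal nephron, and CLDN11, known from myelin and Sertoli cells, were near the floor with values from 23.9 to 41.0 in 786-VHL and from 26.4 to 34.7 in 786-O. At that signal, differences from -0.09 to 0.18 say little about these genes.

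Behind the claudins stand the immunoglobulin-type junction proteins, the scaffolds and the polarity complex. CXADR, an adhesion protein of the tight junction that coxsackie B viruses and adenoviruses use as a receptor, had 664 in 786-VHL and 299.9 in 786-O on its representing probe set. Its second probe set had 367 in 786-VHL and 157 in 786-O, so the differences were 1.11 and 1.14. The 2 dimmer CXADR probe sets, with 49.1 and 44.4 in 786-VHL and 39.0 and 22.7 in 786-O, differed by 0.25 and 0.64, in the same direction. Over the median of its 4 probe sets CXADR was below 2-fold. CXADR had 20 neighbouring measured genes on chromosome 21, fewer on the side of the chromosome end. Their median difference was 0.19 and 14 of them were higher in 786-VHL. TJP1, which encodes the scaffold ZO-1, had 1105 in 786-VHL and 1061 in 786-O, a difference of 0.06, but 344 in 786-VHL and 223 in 786-O on its second probe set, a difference of 0.59. PARD3, a polarity scaffold, had 969 in 786-VHL and 897 in 786-O on the representing probe set, and 242 in 786-VHL and 442 in 786-O on another. Its 4 probe sets ran from -0.83 to 0.11, so no direction could be given for the gene. CRB3, an apical polarity protein, differed by -0.11, the scaffold TJP3 by -0.01 and cingulin, CGN, by 0.24, the last with a second probe set at -0.03. Occludin, OCLN, was below the floor on all 4 of its probe sets.

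Desmosome genes went both ways. DSC2, the desmocollin of simple epithelia, had 38.7 in 786-VHL and 110.0 in 786-O, a difference of -1.20, or 2.30-fold lower in 786-VHL. Its second measured probe set, with 13.4 in 786-VHL and 38.4 in 786-O, differed by -0.89 and was at least 1.42-fold lower with the dim array at the floor, and 2 more were below the floor. DSG2, the desmoglein partner of DSC2 and the next measured gene on chromosome 18, had 2051 in 786-VHL and 1562 in 786-O, and 580.3 in 786-VHL and 350.4 in 786-O on a second probe set. These neighbouring cadherin genes therefore differed in opposite directions, DSC2 by -1.20 and -0.89 and DSG2 by 0.39 and 0.70. On the other side of DSC2, CDH2 differed by -0.42. The 30 nearest measured genes of DSC2 had a median difference of -0.17, and 10 of them were higher in 786-VHL. PKP2, a plakophilin of the desmosomal plaque, had 16.6 in 786-VHL, below the floor, and 51.0 in 786-O, which is at least 1.75-fold lower in 786-VHL. The other PKP2 probe set had 26.9 in 786-VHL and 22.3 in 786-O, a difference of 0.16, so the probe sets of PKP2 disagreed in direction. PKP4, which acts at adherens junctions as well as desmosomes, had 614 in 786-VHL and 839 in 786-O, and all 4 of its measured probe sets were lower in 786-VHL, from -0.44 to -0.24. PKP3 differed by 0.39 on 1 probe set, and its other probe set had exactly the same value, 41.8, on both arrays. Such identical pairs made up 1.37% of measured single-gene probe sets, and how they arose was not tested. Plakoglobin, JUP, lay at the floor with 20.6 in 786-VHL and 25.2 in 786-O, and desmoplakin, DSP, which ties the plaque to keratins, was below it with 8.50 in 786-VHL and 7.44 in 786-O.

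**Figure D2:**
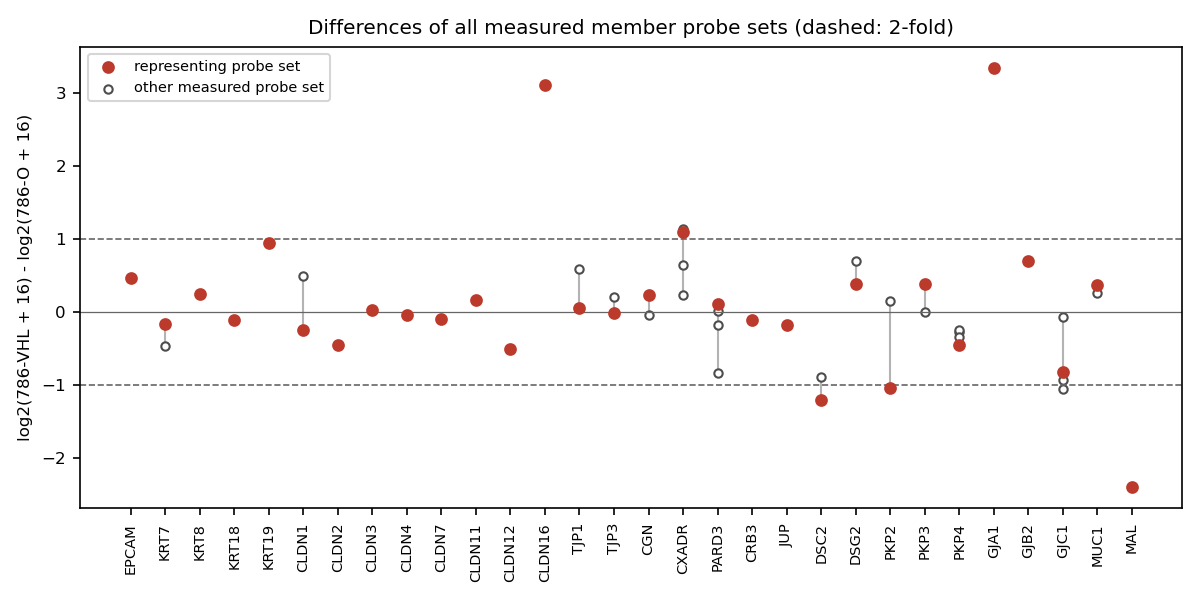
Difference log2(786-VHL + 16) minus log2(786-O + 16) of each of the 52 measured probe sets, by gene, with the representing probe set filled and the others open. The 4 probe sets of CXADR all lie above 0 and those of GJC1 and PKP4 all below it, whereas those of PKP2, PARD3 and CLDN1 lie on both sides.

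The 3 connexins differed from each other. GJA1, which encodes connexin 43, had 250.2 in 786-VHL and 10.1 in 786-O, where it was below the floor. With the 786-O value set to the floor, GJA1 was at least 6.95-fold higher in 786-VHL, and it rests on 1 probe set. Its 30 nearest measured genes on chromosome 6 had a median difference of 0.03. GJB2, which encodes connexin 26, had 195 in 786-VHL and 113 in 786-O, a difference of 0.71, also on 1 probe set. GJC1, which encodes connexin 45, went the other way, with 827 in 786-VHL and 1471 in 786-O, a difference of -0.82. Of its other probe sets, those with 63.3 and 47.0 in 786-VHL and 134 and 114 in 786-O differed by -0.92 and -1.04. The fourth had 309 in 786-VHL and 322 in 786-O and differed by -0.06. Among 9 further measured connexins and pannexins none was 2-fold apart. The connexin gene GJA3, next to GJB2 on chromosome 13, was at least 1.40-fold higher, with 786-O set to the floor. The other GJA3 probe set was below the floor on both arrays. On the other side of GJB2, CRYL1 differed by -0.72, and the 21 neighbouring measured genes of GJB2 had a median difference of 0.06.

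MAL encodes a proteolipid that carries cargo to the apical membrane. It had 27.3 in 786-VHL and 212 in 786-O on its only probe set, a difference of -2.40, or 5.27-fold lower in 786-VHL, where it was just above the floor. Its 30 nearest measured genes on chromosome 2 had a median difference of 0.01. The apical mucin MUC1 had 91.8 in 786-VHL and 66.8 in 786-O, a difference of 0.38, with its second measured probe set at 0.26. ESRP1, a splicing regulator that keeps epithelial isoforms, was below the floor on both of its probe sets in both lines.

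**Figure D3:**
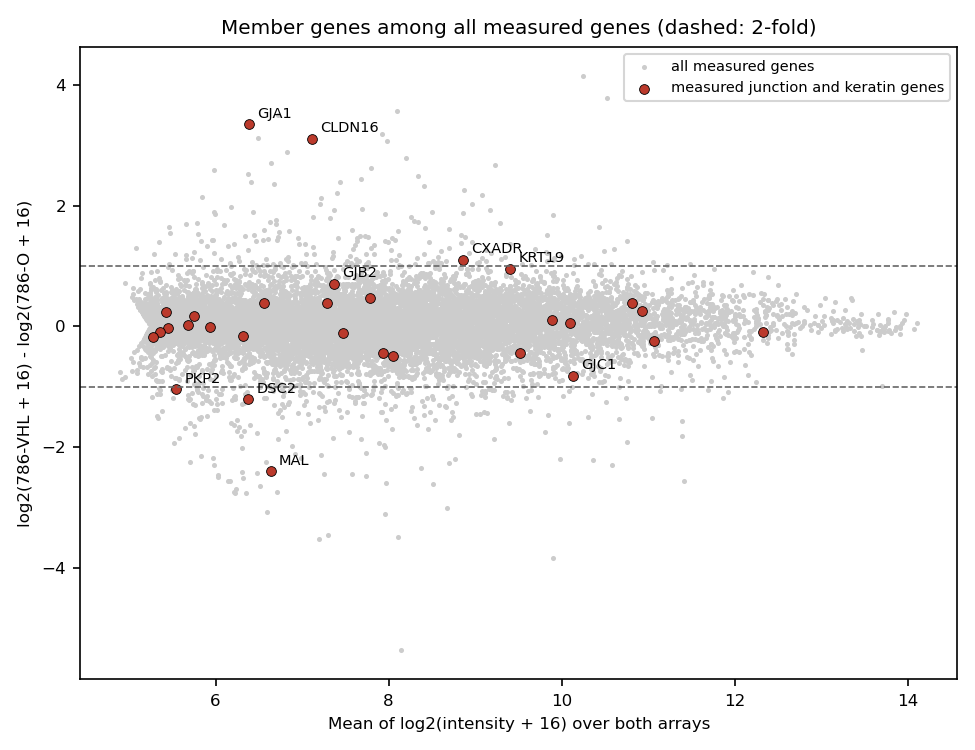
Difference between 786-VHL and 786-O against the mean log2(intensity + 16) of both arrays, for all 13291 measured genes in grey and the 30 measured junction and keratin genes in red, with names from 1.5-fold upwards. GJA1 and CLDN16 lie above 3 and MAL below -2, most other members lie within the grey band, and dashed lines mark 2-fold.

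By probe set the counts were similar, with 4 of 52 measured probe sets at least 2-fold higher, beside 1.42% of all measured single-gene probe sets, and 4 of 52 at least 2-fold lower, beside 2.7%. At 1.5-fold, 9 of 52 probe sets were higher, beside 6.25% of all measured single-gene probe sets, and 8 of 52 lower, beside 7.91%. By gene, 5 of 30 genes were higher, beside 6.25% of all measured genes, and 4 of 30 lower, beside 6.55%. Across the 14 members with several measured probe sets, the SD between probe sets was 0.38. GJA1, CLDN16, MAL, GJB2 and KRT19 had 1 measured probe set each and no such check.

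Further genes of the same structures were less than 1.5-fold apart in shares from 81.8% of the keratin and intermediate filament list to 100% of the desmosome list, beside 87.2% of all measured genes. Among 23 measured further tight junction and polarity genes, none was 2-fold higher and 1, PRKCI, a polarity kinase, was 2-fold lower, at 454 in 786-VHL and 985 in 786-O. Its 2 other probe sets differed by 0.91 and 0.27, in the opposite direction. None of 4 measured further desmosome and plaque genes was 2-fold apart on its representing probe set. Of 11 further keratins and intermediate filament genes, LMNB1, which encodes lamin B1, was 2-fold lower, with 324 in 786-VHL and 911 in 786-O, and VIM, the filament protein of mesenchymal cells, differed by -0.06. Among 7 measured epithelial transcription factors and their repressors, SNAI2, which encodes the repressor Slug, was 2-fold higher, with 535 in 786-VHL and 248 in 786-O, a difference of 1.06. E-cadherin, CDH1, was below the floor on both probe sets in both lines, and GRHL2, an activator of junction genes, was also below it.

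The labelled tissue was checked against 18 markers of kidney tubule and renal carcinoma, of which 10 were measured, and the aminopeptidase gene ANPEP, at 1.02, was the only 1 of them 2-fold apart on its representing probe set. PAX8, a factor of kidney lineage, had 1068 in 786-VHL and 1521 in 786-O on that probe set, and all 8 of its measured probe sets were lower in 786-VHL, from -1.08 to -0.29. By contrast, the proximal tubule receptors LRP2 and CUBN and the thick limb transporter SLC12A1 were below the floor in both lines. The leukocyte marker list had 4 of 10 measured, with a summed intensity of 428 in 786-VHL and 992 in 786-O, and PTPRC, the defining CD45 gene, and CD3E were below the floor on both arrays. Most of the 786-VHL sum was LAPTM5, with 292 in 786-VHL and 25.9 in 786-O, a difference of 2.88. Most of the 786-O sum was LCP1, with 66.1 in 786-VHL and 908 in 786-O, a difference of -3.49. Fibroblast and pericyte markers had 5 of 10 measured and a sum of 229.9 in 786-VHL and 264 in 786-O, with LUM at least 1.39-fold higher, PDPN at least 2.02-fold lower and DCN below the floor in both lines. Endothelial markers had 6 of 9 measured, a sum of 209 in 786-VHL and 184 in 786-O, and none 2-fold apart. The part of other cells in the junction results was not tested beyond these values.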

How the data were processed

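Total RNA of 786-VHL and 786-O was labelled with biotin, per the labels' protocols, and hybridised to 1 Affymetrix array per line. The authors deposited intensities that are linear, to judge by their range, 1 per probe set and array. The submitters' processing notes name R 2.10 alone, so how background, normalization and probes were handled is not given in the sources used here. These choices can shift or compress differences, and 3.89% of the 54613 probe sets had identical values on both arrays. The GEO platform annotation named 1 gene for 41091 probe sets, several for 1801 and none for 11721. For 41037 of the 41091, the current symbol was looked up by Entrez number, whether or not it differed.

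Differences of log2(intensity + 16), the floor, the representing probe sets and the counts were computed with Python 3.11.15, numpy 2.4.6, pandas 2.3.3 and matplotlib 3.10.9, and the calling steps were tested on simulated data. With 1 array per line no test was possible, and the number of arrays limits precision. The members, lists and settings were chosen with earlier results of these data known. Values were printed for members with a measured probe set at least 1.5-fold apart, for the member with the highest intensity in each role group, and for up to 4 genes of each other list past 2-fold. Other members, genes next to members on a chromosome, and VHL, CDH1, GRHL2, VIM, PAX8 and GJA3 were named in addition. So were LRP2, CUBN, SLC12A1, PTPRC, CD3E, DCN, LMNA, LMNB2, ZEB1 and CTNNB1. Neighbours were the 15 measured genes on each side in GRCh38.p14 gene order, or fewer on a side that reached the chromosome end. Alternatives covered scaling, the floor, the pseudocount, the probe sets used and the threshold.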

Additional observations from a re-analysis of the deposited data

How the results depend on the processing

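No paired analysis was possible because there was a single array of 786-VHL and of 786-O, and no array could be left out. Quantile normalization and removal of the intensity trend left the counts of members at 3 higher and 3 lower. Of all genes, 1.53% were then higher and 2.18% lower with quantile normalization, and 1.38% higher and 2.35% lower with the trend removed. With a pseudocount of 64, 4 member probe sets were 2-fold apart, 1 of them lower, and 1 member gene was lower, MAL, with DSC2 at -0.76 and PKP2 at -0.51, beside 0.828% of all genes higher and 1.10% lower. A pseudocount of 1 put GJA1 at 4.50 and a pseudocount of 64 at 2.08. Without probe sets ending in _s_at, _x_at and _a_at, 4 of 25 member probe sets were 2-fold higher and 2 were lower. Beside them, 1.29% of all probe sets were higher and 2.76% lower. Of 18 member genes, 3 were then higher and 1 lower, beside 1.43% and 2.36% of all genes. Fewer probe sets were used there, and those of MAL and PKP2 carry such suffixes. Over the median of probe sets CXADR and PKP2 were below 2-fold, PKP2 at -0.44. The 1.5-fold threshold gave 17 probe sets (9 higher, 8 lower) and 5 higher genes, beside 6.25% of all probe sets higher, 7.91% lower, and 6.25% of all genes higher. The lower bound with the dim array at the floor, chosen after the data were seen, gave 3 higher and 2 lower genes, without PKP2, beside 1.48% and 2.08% of all genes. Genes near the floor, such as CLDN3, CLDN4, CLDN7 and JUP, are limited by signal.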

Other observations

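Probe sets outside the selection gave values for ESRP2 and CLDN12. A probe set annotated to both MIR6773 and ESRP2 had 32.7 in 786-VHL and 29.3 in 786-O, a difference of 0.11, and a probe set annotated to PTTG1IP2 and CLDN12 was below the floor with 10.0 in 786-VHL and 9.03 in 786-O. Among the nuclear lamina genes, LMNB1 differed by -1.45 and LMNB2 by -0.27, each on 1 probe set. LMNA, which encodes lamins A and C, went the other way, by 0.33 to 1.03 on its 5 measured probe sets. ZEB1, a repressor of epithelial genes, had probe sets at -0.44 and -0.30 and another at 1.13, so its direction depended on the probe set. The beta-catenin gene CTNNB1 had 2 dim probe sets below the floor in 786-VHL, lower there by 1.99-fold or more and 1.33-fold or more, while its representing probe set was less than 1.5-fold apart.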
